A study of Mus musculus with 16 samples.

Results

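The genes described here encode the enzymes, transporters and regulators of glycolysis, gluconeogenesis, glycogen metabolism and the pentose phosphate pathway in primary mouse hepatocytes. They were taken from a list of 36 gene symbols, and every row of the count table that carries one of these symbols was used. The list matched 37 of 55450 rows, because the symbol Aldoa names 2 rows. The second Aldoa row (ENSMUSG00000114515.2) held few reads and did not pass the filter on low values, so 36 rows, 1 for each symbol, were tested among 11675 genes. All cells were hepatocytes of wild-type mice (male C57BL/6J animals of 8 to 12 weeks, per the study's methods), isolated from fresh livers and kept overnight in DMEM with fetal bovine serum and insulin-transferrin-selenium. There were 4 groups of 4 libraries each, with replicates lettered A to D. The untreated group received only this medium. The itaconate group received 10 mM sodium itaconate, the salt of an acid that activated macrophages make. The lipid group received a chemically defined mixture of fatty acids and cholesterol diluted 10-fold, and the lipid + itaconate group received both. Whether a letter stands for 1 animal or 1 culture is not given in the sources used here, so p-values measure the spread between these libraries, which may be technical. Insulin in the medium was shared by all groups.

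Glycolysis splits glucose to pyruvate, and the liver runs much of the same chain backwards to release glucose in fasting. The direction is set at a few steps where separate enzymes work each way: hexokinases against glucose-6-phosphatase, phosphofructokinase against fructose bisphosphatase, and pyruvate kinase against pyruvate carboxylase with phosphoenolpyruvate carboxykinase. Glucose 6-phosphate can also be stored as glycogen, or oxidised in the pentose phosphate pathway, which yields NADPH for lipid synthesis.

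Libraries held between 22346049 and 35512004 assigned reads, of which the 36 symbols took 1.74 to 2.13%. Levels are given as CPM, which are reads scaled to a fixed library size with TMM factors, and a change was called where the Benjamini-Hochberg adjusted p of edgeR's quasi-likelihood test over all genes was under 0.05. Libraries with the same letter deviated together, so the letter was a term of the model. The defining hepatocyte markers summed to between 36450 and 62340 CPM in all 16 libraries, and the 4 erythroid and T cell markers to at most 2.43 CPM. Macrophage markers summed to a mean of 234 CPM ± 45.1 (SD, n = 4) in untreated, 209 ± 36.2 in itaconate, 288 ± 41.9 in lipid and 271 ± 49.7 in lipid + itaconate libraries. Of 7 macrophage markers tested, 1 rose and 3 fell with lipid, and in lipid + itaconate against itaconate 1 rose and 6 fell, with a median log2 fold change of -0.77. Cholangiocyte markers, of which Cftr was at 0, summed to 466 CPM ± 122 in lipid and 846 ± 246 in untreated libraries, and both of those tested fell in each lipid comparison. Hepatocyte markers summed to 45090 CPM ± 5116 in lipid and 51740 ± 6918 in untreated libraries, and 4 of 9 fell. With itaconate present 1 of the 9 rose and 6 fell with lipid, and the 1 stellate marker tested fell too. Of 5 endothelial markers tested, 1 rose and 1 fell with lipid alone, and 0 rose and 1 fell with itaconate present. The median log2 fold changes of the endothelial markers were 0.19 and 0.11. Stellate markers summed to 16.23 to 25.55 CPM and endothelial markers to 11.62 to 23.36 CPM over all libraries. Their part in the results was not tested, and in bulk samples fewer cells of a type and less RNA per cell cannot be told apart. Within the lipid + itaconate group 2 libraries stood apart. Replicate B differed from the other 3 by a chi-square per gene of 106 to 147, against at most 64.5 for any other pair within a group. Replicate C held the lowest level of the group for 27 of the 36 genes, whereas in the other groups replicate C was lowest for 4 to 8 of them. Called changes of the 36 genes that involve this group are therefore given also without these libraries. Replicate C was set apart by the levels of these same genes, so leaving it out raises the group means wherever it was lowest.

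Levels differed widely between the genes. On the per-length scale (TPM, reads divided by union exon length and scaled to a fixed sum), Gapdh stood highest, at a mean of 3036 TPM over the 16 libraries. Pgk1 followed at 1921, Ldha at 1583, Pgam1 at 1343, Eno1 at 1153, Tpi1 at 1106 and Aldoa at 941.9 TPM, and the ranges of Eno1 and Tpi1 overlapped in every group. Among the genes of liver glucose handling, Ugp2 was at 477.1, Khk at 292.5 and Fbp1 at 274.3 TPM. Pck1 (21.84 TPM), Slc2a2 (9.93 TPM) and G6pc (9.543 TPM), which serve glucose release, were far lower than the glycolytic enzymes. Hk1 stood at 5.459, Hk2 at 4.869 and Pfkfb1 at 1.738 TPM, the last of the 36. The deposited counts of Gpi1, Tpi1, Pgk1, Pgam1, Eno1, Pkm and Ldha were fractional in every library. Those of Gapdh were fractional in 93.8% of libraries, and those of Taldo1, Aldoa, Pfkm and Pygl in some. Fractions arise where reads fit more than 1 place, so these levels are uncertain to the extent that the authors' counting could split such reads. Which other genes or pseudogenes share the reads was not examined.

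**Figure D1:**
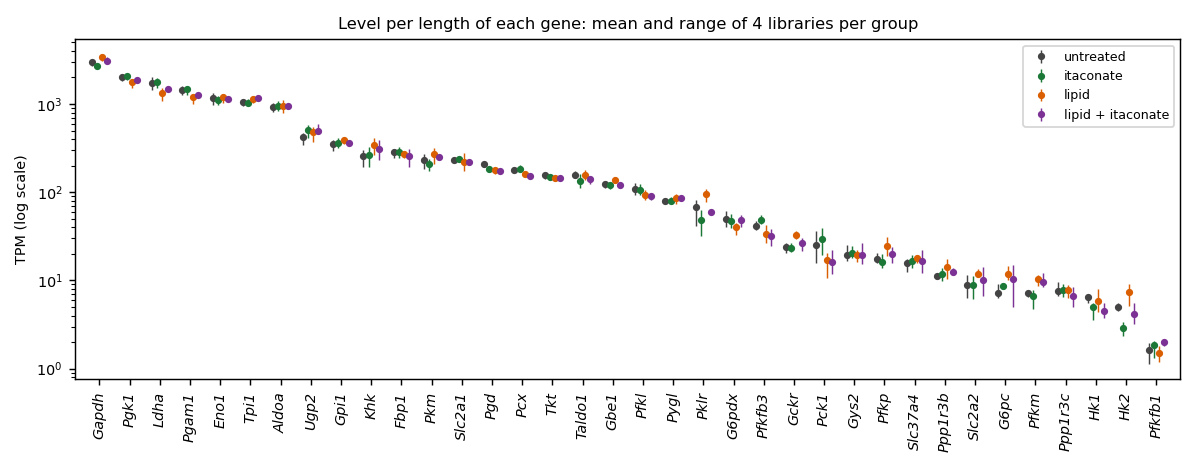
Level per length (TPM, log axis) of each of the 36 tested genes, ordered by their mean; points are the means of 4 libraries per group and lines run from the lowest to the highest library. Gapdh leads at 3036 TPM, and Hk1, Hk2 and Pfkfb1 stand at the low end.

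Lipid changed these genes in both directions. Of the 36, 9 rose and 9 fell in lipid against untreated cells, which is 50% of them beside 47.5% of all genes tested (23.8% higher and 23.7% lower). Their median log2 fold change was -0.04, against 0.00 for all genes. With itaconate present throughout, lipid + itaconate against itaconate, 5 rose and 8 fell (36.1%, beside 47.0% of all genes, 23.5% in each direction), with a median of -0.02. Changes of at least 1.5-fold were few. Without itaconate they were G6pc, higher, and Pck1, lower, beside 5.40% of all genes higher and 4.39% lower. With itaconate present they were Pck1 and Pfkfb3, both lower, beside 4.82% higher and 3.94% lower. Thus the share of called genes was near or below the background, and what follows is about which steps moved. All 18 genes called without itaconate had the same sign with it, and 10 were called in both, which is 55.6% of the first list and 76.9% of the second. Over all genes, 97.9% kept their sign, and the shared calls were 75.8% and 76.7% of the lists. The 2 comparisons share no library, although they share the letters. Without lipid + itaconate replicate B 15 of the 36 were called with itaconate present, and without replicate C 14, in place of 13. Over all genes 5293 and 5168 were called, in place of 5483.

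**Figure D2:**
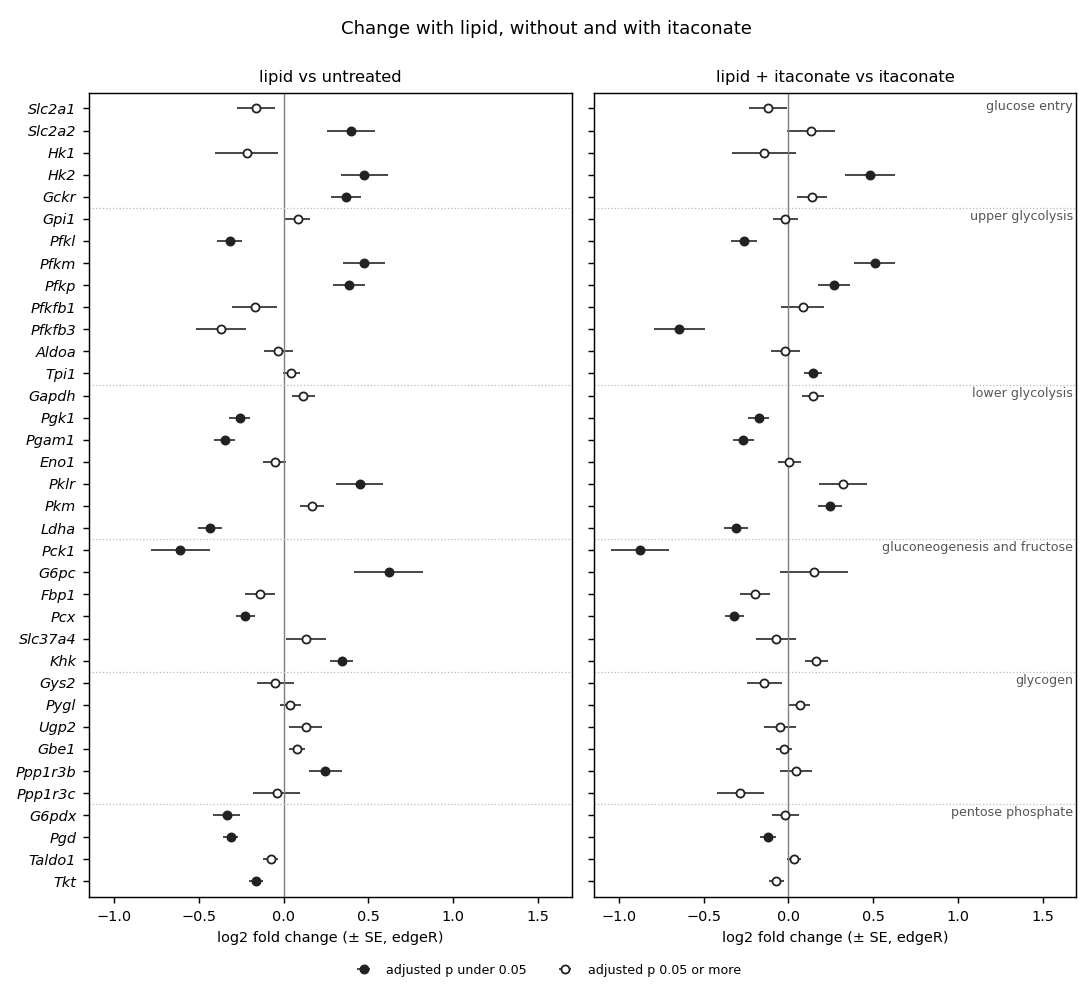
Log2 fold change (± SE) of each gene with lipid, without itaconate (left) and with it (right), from edgeR; filled points have an adjusted p under 0.05. Pgk1, Pgam1, Ldha, Pcx and Pck1 lie left of 0 in both panels, and Hk2, Pfkm and Pfkp lie right of 0.

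Promoter sequence is shown first for the 3 lower-glycolysis genes that fell together with lipid, Pgk1, Pgam1 and Ldha, and for Hk2 and Pck1, called in glucose entry and glucose release in both lipid comparisons. The windows are the 250 bases before a RefSeq start site (GRCm38.p6), 5′ to 3′ on the gene's strand. Capitals mark ACGTG, the core letters of sites bound by hypoxia-inducible factors and, as CACGTG, by E-box factors, read on both strands. In Pck1 they mark TNACGTCA, a cyclic AMP response element with 1 free base.
Pgk1, chrX:106186850-106187099, plus strand: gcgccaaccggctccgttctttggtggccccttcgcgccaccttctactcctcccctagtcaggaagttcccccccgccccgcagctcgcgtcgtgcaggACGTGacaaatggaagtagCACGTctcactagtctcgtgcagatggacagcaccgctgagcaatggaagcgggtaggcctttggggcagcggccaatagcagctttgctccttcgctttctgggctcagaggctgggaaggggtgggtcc
Pgam1, chr19:41911621-41911870, plus strand: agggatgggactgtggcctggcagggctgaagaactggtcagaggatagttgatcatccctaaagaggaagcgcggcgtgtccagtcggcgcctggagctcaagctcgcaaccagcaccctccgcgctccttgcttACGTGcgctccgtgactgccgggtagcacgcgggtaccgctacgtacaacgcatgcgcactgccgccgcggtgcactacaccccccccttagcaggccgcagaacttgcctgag
Ldha, chr7:46845554-46845803, plus strand: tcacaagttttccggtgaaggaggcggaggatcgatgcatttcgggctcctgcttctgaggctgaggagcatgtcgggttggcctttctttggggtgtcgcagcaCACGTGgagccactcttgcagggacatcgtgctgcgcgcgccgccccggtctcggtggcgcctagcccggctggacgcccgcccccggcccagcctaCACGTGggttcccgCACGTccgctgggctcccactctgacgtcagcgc
Hk2, chr6:82774455-82774704, minus strand: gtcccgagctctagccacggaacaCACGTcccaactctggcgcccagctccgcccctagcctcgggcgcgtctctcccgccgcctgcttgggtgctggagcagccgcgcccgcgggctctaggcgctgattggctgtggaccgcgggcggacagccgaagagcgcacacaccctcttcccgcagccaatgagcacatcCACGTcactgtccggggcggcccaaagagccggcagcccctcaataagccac
Pck1, chr2:173152823-173153072, plus strand: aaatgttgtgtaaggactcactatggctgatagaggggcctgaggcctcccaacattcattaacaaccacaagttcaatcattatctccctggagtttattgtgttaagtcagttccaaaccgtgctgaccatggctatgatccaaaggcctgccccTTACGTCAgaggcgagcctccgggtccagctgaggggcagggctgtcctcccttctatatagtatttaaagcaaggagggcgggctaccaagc

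ACGTG stood in 16.6% of the 32851 windows of this length, in 31.5% of the 54 windows of these genes, and in at least 1 window of 14 of the 34 genes with a window (all but Ppp1r3b and Gys2). TNACGTCA stood in 2.52% of all windows and in a window of 2 of the 34 genes, Pck1 and Ldha; the letters ACGT are common to both motifs. In Pgk1 the first letters lay at positions -150 and -131 from the start, in Pgam1 at -114, in Hk2 at -226 and -52, and in Pck1 at -93. Ldha held 3 stretches in the printed window, and its CACGTG stretches read the motif on both strands. Ldha has another RefSeq start, whose window (chr7:46846832-46847081, not printed) held no ACGTG. A match of letters is a description and not a site shown to be bound. Genes that fell and genes that rose with lipid both held ACGTG.

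Of the 5 genes grouped as glucose entry and its control, 3 were called with lipid without itaconate and 1 with it, all higher. Over all genes 23.8% and 23.5% were called higher in the same comparisons. With 5 genes, the counts are not read as a result about the group. All values are RNA levels, and glucose uptake was not measured here. Hk2 (ENSMUSG00000000628.10, chr6:82725025-82774454, minus strand), which encodes the inducible hexokinase that traps glucose, moved with both agents. Its level was 11.7, 12.5, 10.2 and 11.9 CPM in untreated replicates A to D and 11.5, 14.2, 19.8 and 19.9 CPM in lipid replicates. With itaconate it was 5.79, 7.9, 7.22 and 6.39 CPM, and with lipid + itaconate 7.39, 9.23, 9.23 and 12.5 CPM. Every itaconate library lay below every untreated one, whereas the lipid and untreated ranges overlapped because lipid replicate A stayed at the untreated level. With lipid the log2 fold change was 0.48 ± 0.14 (SE) without itaconate (adjusted p = 0.0112) and 0.48 ± 0.15 with it (adjusted p = 0.0148), higher in 3 of 4 and in 4 of 4 letters. The first call was lost without untreated replicate C (adjusted p = 0.0609), untreated replicate D (0.053) or lipid replicate C (0.0557), and the second without replicate D of the itaconate (0.0774) or the lipid + itaconate group (0.0733). The second change was 0.51 without lipid + itaconate replicate B (adjusted p = 0.0211), and without replicate C 0.52 (adjusted p = 0.0153).

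Slc2a2, the low-affinity glucose carrier of hepatocytes, and Gckr, the regulatory protein that holds glucokinase in the nucleus, rose with lipid in the absence of itaconate. Slc2a2 went from 19.8 CPM ± 6.15 to 25.1 ± 2.89 (log2 fold change 0.40 ± 0.14, adjusted p = 0.0299), higher in 4 of 4 letters although the groups overlapped. Its call was lost without untreated replicate B (adjusted p = 0.0611), C (0.0655) or D (0.0946), without lipid replicate C (0.109) or D (0.155), and without the letter term (0.342). Gckr went from 40.3 CPM ± 4.96 to 52 ± 5.42 (0.37 ± 0.09, adjusted p = 0.00299), and the groups did not overlap. With itaconate present the lipid difference was 0.13 ± 0.14 for Slc2a2 and 0.14 ± 0.09 for Gckr, neither called. Slc2a1 and Hk1, the widely expressed transporter and hexokinase, were called in no comparison.

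The 3 phosphofructokinase genes, which encode the subunits of the committing step of glycolysis, moved apart with lipid. Pfkl (ENSMUSG00000020277.10, chr10:77986947-78010083, minus strand), the liver subunit, was at 255, 270, 325 and 283 CPM in untreated replicates A to D and at 202, 200, 256 and 250 CPM with lipid. It was at 257, 268, 330 and 271 CPM with itaconate and at 252, 232, 221 and 228 CPM with lipid + itaconate. The liver subunit thus fell in every letter, by 0.32 ± 0.08 on the log2 scale without itaconate (adjusted p = 0.0029) and by 0.26 ± 0.08 with it (adjusted p = 0.0111), and with itaconate the groups did not overlap. Without itaconate replicate C the second p was 0.0504. The second change was -0.29 without lipid + itaconate replicate B (adjusted p = 0.0105) and -0.17 without replicate C (adjusted p = 0.038).

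Pfkm (ENSMUSG00000033065.14, chr15:98092589-98132451, plus strand), the muscle subunit, was at 10.6, 8.58, 8.2 and 9.69 CPM in untreated and 14.4, 10.6, 13.3 and 13.4 CPM in lipid replicates. Itaconate libraries held 10.6, 6.2, 9.85 and 8.83 CPM, and those with both agents 12.3, 12.5, 14.8 and 10.4 CPM. It rose in 4 of 4 letters in both comparisons, by a log2 fold change of 0.47 ± 0.12 (adjusted p = 0.00532) and 0.51 ± 0.12 (adjusted p = 0.00342), with a small overlap of the groups. In that comparison it was 0.41 without lipid + itaconate replicate B (adjusted p = 0.014) and 0.42 without replicate C (adjusted p = 0.0137). Pfkp (ENSMUSG00000021196.14, chr13:6579768-6648777, minus strand), the platelet subunit, was at 85.4, 88.4, 105 and 81.8 CPM in untreated and 95.6, 94, 154 and 134 CPM in lipid replicates. Itaconate libraries held 86.6, 78.1, 104 and 73.3 CPM, and lipid + itaconate libraries 92.9, 89.5, 119 and 111 CPM. Replicates C and D carried the larger rises. The log2 fold change with lipid was 0.39 ± 0.09 (adjusted p = 0.00294) and, with itaconate present, 0.27 ± 0.09 (adjusted p = 0.0254). The latter call was lost without replicate C (adjusted p = 0.0545) or D (0.126) of the itaconate group, without replicate D of the lipid + itaconate group (0.101) and without the letter term (0.179). It was 0.28 without lipid + itaconate replicate B (adjusted p = 0.0347) and 0.30 without replicate C (adjusted p = 0.0222).

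As a share of the summed per-length level of the 3 genes, Pfkl made up 81.6% ± 1.178 in untreated, 82.4% ± 1.75 in itaconate, 72.8% ± 1.38 in lipid and 75.3% ± 2.98 in lipid + itaconate libraries. No lipid library, with or without itaconate, reached the lowest share without lipid, 79.99%. Pfkm went from 5.41% ± 1.03 to 8.36% ± 1.31 with lipid, and Pfkp from 13% ± 0.719 to 18.8% ± 1.95. Hk2 made up 43.5% ± 3.67 of the summed Hk1 and Hk2 level in untreated libraries, 37% ± 5.48 with itaconate, 56.1% ± 2.98 with lipid and 47.6% ± 9.1 with both. The lipid libraries, at 53.41 to 59.75%, lay above all untreated ones. Slc2a2 was a minor part of the summed Slc2a1 and Slc2a2 level, at 3.64% ± 0.968 in untreated and 5.31% ± 1.51 in lipid libraries, and the groups overlapped. The shares are descriptions of bulk RNA and carry no test, and the part of other cell types in them was not tested.

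**Figure D3:**
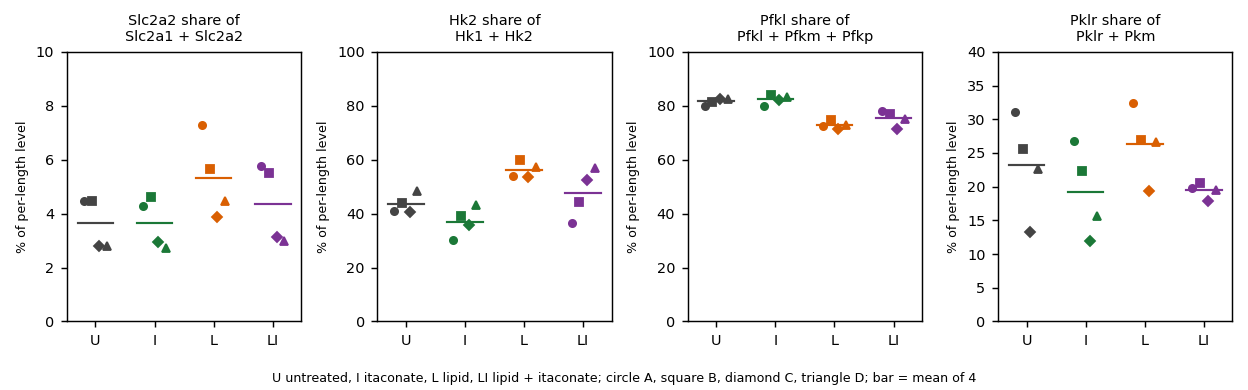
Share of 1 isozyme or carrier in the summed per-length level of its family (percent, each axis from 0) in each of the 16 libraries, with bars for group means and symbols for replicate letters. The Pfkl share is lower in all 8 libraries with lipid, and the Pklr share of lipid + itaconate libraries lies between 17.94 and 20.54%.

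Pfkfb3 (ENSMUSG00000026773.19, chr2:11471433-11554077, minus strand) makes fructose 2,6-bisphosphate, the activator of phosphofructokinase. It was at 146, 108, 120 and 110 CPM in untreated replicates A to D, 167, 131, 164 and 131 CPM with itaconate, 79.1, 72, 117 and 105 CPM with lipid, and 113, 102, 69.4 and 93.1 CPM with both. Every itaconate library lay above every lipid + itaconate library. The log2 fold change with lipid was -0.64 ± 0.15 in the presence of itaconate (adjusted p = 0.00243), -0.76 without lipid + itaconate replicate B (adjusted p = 0.000927) and -0.47 without replicate C (adjusted p = 0.00456). In the absence of itaconate it was -0.37 ± 0.15 (adjusted p = 0.0526), lower in 4 of 4 letters but short of the threshold. The sister gene Pfkfb1 was called in no comparison. Tpi1, triose phosphate isomerase, rose by 0.15 ± 0.05 on the log2 scale with lipid in the presence of itaconate (adjusted p = 0.0307), from 1137 CPM ± 63.9 to 1257 ± 53.8. This call was lost without replicate A (adjusted p = 0.0835), C (0.0958) or D (0.0749) of the itaconate group or replicate A of the lipid + itaconate group (0.153), without the letter term (0.0824) and in a fit of only the 8 libraries compared (0.0779). It was 0.16 without lipid + itaconate replicate B (adjusted p = 0.0321) and 0.17 without replicate C (adjusted p = 0.0173). Gpi1 and Aldoa, at neighbouring steps, were not called.

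In lower glycolysis Pgk1, Pgam1 and Ldha, whose promoters are printed above, fell with lipid in both comparisons. Ldha (ENSMUSG00000063229.15, chr7:46841475-46855627, plus strand), the lactate dehydrogenase subunit that favours lactate formation, was at 1925, 2166, 2536 and 2179 CPM in untreated replicates A to D and at 1361, 1583, 1833 and 1751 CPM with lipid. With itaconate it was at 2075, 2417, 2588 and 2410 CPM, and with lipid + itaconate at 1946, 1978, 1814 and 1862 CPM. All lipid libraries lay below all untreated ones, and all lipid + itaconate libraries below all itaconate ones. The log2 fold change was -0.43 ± 0.07 (adjusted p = 0.000135) and -0.31 ± 0.07 (adjusted p = 0.00212). In the untreated, itaconate and lipid groups replicate C was highest and replicate A lowest for Ldha, while in the lipid + itaconate group replicate C was lowest. Without that library the second change was -0.23 (adjusted p = 0.00481), and without replicate B of the group -0.33 (adjusted p = 0.0026).

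Pgk1 (ENSMUSG00000062070.12, chrX:106187100-106203699, plus strand), phosphoglycerate kinase, which forms the first ATP of the pathway, was at 1645, 1715, 1886 and 1720 CPM untreated and 1285, 1415, 1589 and 1539 CPM with lipid. It was at 1728, 1875, 1911 and 1845 CPM with itaconate and 1719, 1683, 1514 and 1582 CPM with lipid + itaconate. The groups did not overlap in either comparison. It fell by 0.26 ± 0.06 on the log2 scale (adjusted p = 0.00329) and by 0.18 ± 0.06 (adjusted p = 0.0313). The second call was lost without itaconate replicate B (adjusted p = 0.0648), C (0.0703) or D (0.0633), without lipid + itaconate replicate C (0.113) or D (0.0995), without the letter term (0.063) and in a fit of only the 8 libraries compared (0.0635). The change was -0.20 without lipid + itaconate replicate B (adjusted p = 0.0277).

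Pgam1 (ENSMUSG00000011752.7, chr19:41911923-41918660, plus strand), phosphoglycerate mutase, was at 1007, 1070, 1212 and 1142 CPM untreated and 755, 835, 944 and 951 CPM with lipid. In itaconate replicates it was at 1052, 1209, 1235 and 1176 CPM, and with lipid + itaconate at 995, 998, 923 and 955 CPM. Here too the groups were fully apart. It fell by 0.35 ± 0.06 (adjusted p = 0.000312) and by 0.27 ± 0.06 on the log2 scale (adjusted p = 0.0027). The second change was -0.29 without lipid + itaconate replicate B (adjusted p = 0.00315) and -0.21 without replicate C (adjusted p = 0.00811). Gapdh and Eno1, the other enzymes between triose phosphate and phosphoenolpyruvate, were not called: their log2 fold changes with lipid lay between -0.05 and 0.14. Gapdh was called higher with lipid in the presence of itaconate when lipid + itaconate replicate C was left out (0.21, adjusted p = 0.00584). Gapdh held 4739 CPM ± 200 in untreated and 5132 ± 300 in lipid libraries, so the fall was not shared by all steps of the segment.

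Pklr (ENSMUSG00000041237.12, chr3:89136142-89146784, plus strand), the pyruvate kinase of liver and red cells, went the other way from Ldha. It was at 108, 100, 51.5 and 82.7 CPM in untreated replicates A to D, 123, 110, 91.2 and 130 CPM with lipid, 84.6, 78.6, 40.7 and 48.3 CPM with itaconate, and 75.9, 80.8, 69.2 and 77.4 CPM with both. Replicate C was the lowest library in every group. With lipid its log2 fold change was 0.45 ± 0.14 (adjusted p = 0.015), higher in 4 of 4 letters with overlapping groups. That call was lost without untreated replicate C (adjusted p = 0.0744) or lipid replicate D (0.0755), and without the letter term (0.159). With itaconate present it was 0.32 ± 0.14 (adjusted p = 0.0752), higher in 3 of 4 letters. Pkm, the pyruvate kinase of most other tissues, rose from 411 CPM ± 44.1 with itaconate to 484 ± 8.04 with lipid + itaconate (0.24 ± 0.07, adjusted p = 0.00892), with no overlap of the groups. That call was lost without the letter term (adjusted p = 0.121). The change was 0.24 without lipid + itaconate replicate B (adjusted p = 0.0176) and 0.31 without replicate C (adjusted p = 0.00101). Without itaconate its lipid difference was 0.17 ± 0.07 (adjusted p = 0.0562). Pkm was the larger part of the pair: Pklr made up 23.2% ± 7.42 of their summed per-length level in untreated libraries and 26.3% ± 5.34 with lipid.

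Gluconeogenic genes changed with lipid in both directions. Pck1 (ENSMUSG00000027513.11, chr2:173153048-173159273, plus strand), cytosolic phosphoenolpyruvate carboxykinase and a classic target of glucagon and insulin, showed the largest fall of the 36 with lipid. It was at 50.7, 20.8, 32.9 and 29.7 CPM in untreated replicates A to D and 24.5, 13.4, 25.7 and 21.9 CPM with lipid. With itaconate it was at 55.7, 26.1, 44.1 and 35.9 CPM, and with lipid + itaconate at 29.4, 23, 15.1 and 18.6 CPM. Lipid lowered it in every letter, although letters differed enough that the groups overlapped. The log2 fold change was -0.61 ± 0.17 (adjusted p = 0.00851) without itaconate and -0.88 ± 0.17 (adjusted p = 0.00067) with it, and the latter was -0.69 without lipid + itaconate replicate C (adjusted p = 0.00106) and -1.13 without replicate B (adjusted p = 5.84e-06). The first call rested on the letter term (adjusted p = 0.0824 without it).

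Pcx (ENSMUSG00000024892.17, chr19:4510472-4621752, plus strand), pyruvate carboxylase, which feeds oxaloacetate to Pck1 and to the citric acid cycle, was at 332, 330, 339 and 314 CPM untreated and 268, 289, 306 and 261 CPM with lipid. It was at 349, 350, 382 and 326 CPM with itaconate and 295, 310, 256 and 266 CPM with lipid + itaconate. The groups did not overlap in either comparison. It fell by 0.23 ± 0.06 (adjusted p = 0.00394) and by 0.32 ± 0.06 on the log2 scale (adjusted p = 0.00034). The second change was -0.36 without lipid + itaconate replicate B (adjusted p = 0.000164) and -0.24 without replicate C (adjusted p = 0.000263).

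G6pc (ENSMUSG00000078650.2, chr11:101367561-101377903, plus strand), the glucose-6-phosphatase that frees glucose for export, rose with lipid alone. It was at 8.98, 5.78, 5.87 and 6.77 CPM untreated and 13.3, 11, 9.07 and 8.86 CPM with lipid, a log2 fold change of 0.62 ± 0.20 (adjusted p = 0.0204), higher in 4 of 4 letters. The call was lost without untreated replicate B (adjusted p = 0.0867), lipid replicate C (0.0565) or the letter term (0.0837). With itaconate it was at 9.41, 7.79, 8.38 and 8.03 CPM, and with lipid + itaconate at 14.2, 13.5, 4.43 and 7.14 CPM. The last group split by letter, with A and B above and C and D below their itaconate partners, and the change was 0.15 ± 0.20 (adjusted p = 0.564). Without lipid + itaconate replicate C it was 0.39 (adjusted p = 0.0398). Fbp1, fructose bisphosphatase, and Slc37a4, the glucose 6-phosphate carrier, were not called, although Fbp1 passed with itaconate present when lipid + itaconate replicate B was left out (-0.31, adjusted p = 0.00393). Khk, the fructokinase that brings fructose into the pathway, rose from 179 CPM ± 36.9 to 228 ± 50 with lipid (0.34 ± 0.07, adjusted p = 0.000796), higher in 4 of 4 letters. The letters of Khk differed by more than the change, and without the letter term the adjusted p was 0.243. With itaconate present the lipid difference of Khk was not called, but without lipid + itaconate replicate C it was 0.26 (adjusted p = 0.000346).

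**Figure D4:**
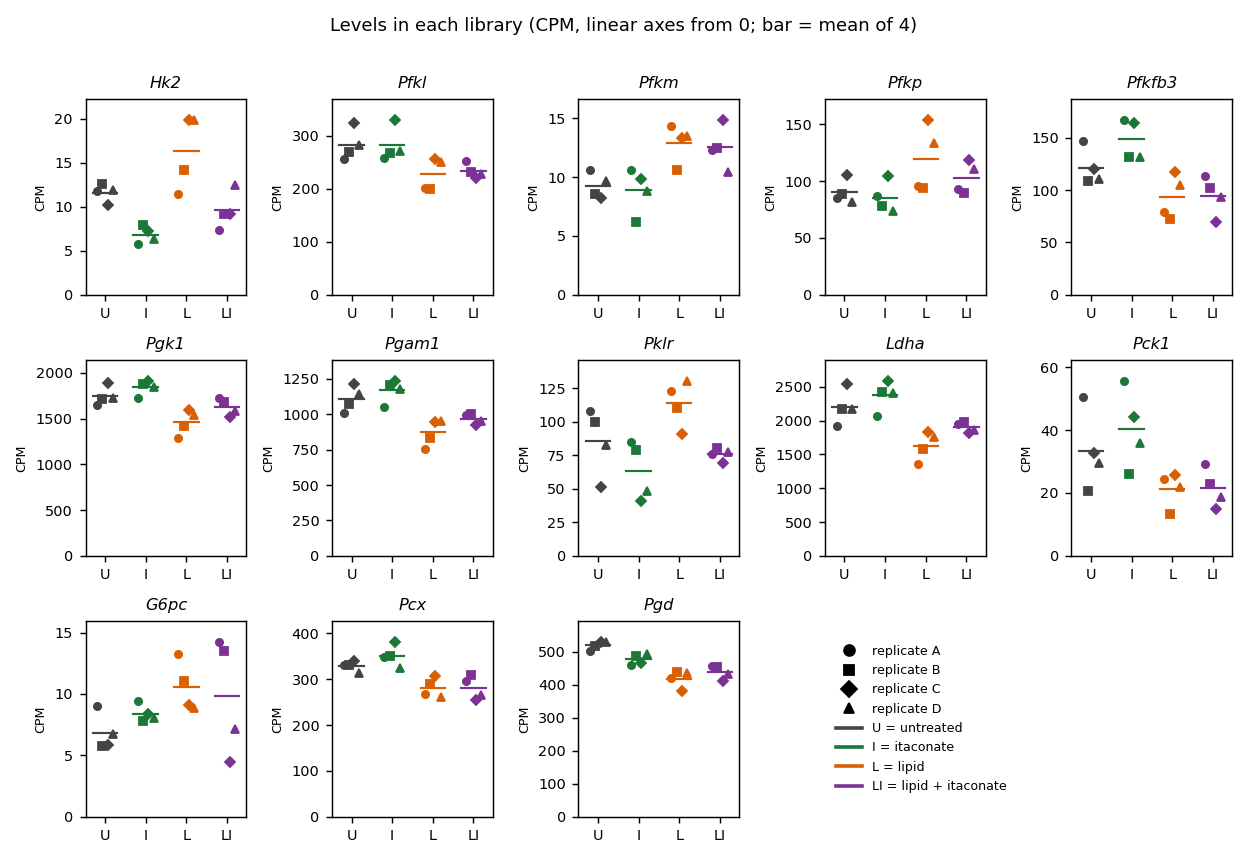
CPM of the 13 genes called in at least 2 treatment comparisons or called with at least a 1.5-fold change, in each of the 16 libraries (linear axes from 0); symbols give the replicate letter and bars the mean of 4. Ldha, Pgk1, Pgam1 and Pcx of lipid libraries lie below every untreated library, and Hk2 of itaconate libraries lies below every untreated library.

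Of the 6 glycogen genes, 1 was called with lipid, beside 47.5% of all genes. Ppp1r3b, the liver subunit that brings protein phosphatase to glycogen, rose from 27.1 CPM ± 2.03 to 32.4 ± 7.69 (0.25 ± 0.10, adjusted p = 0.0466), higher in 3 of 4 letters. That call was lost without the letter term (adjusted p = 0.136), with RLE normalization (0.051) and limma-trend (0.0602), and without untreated replicate A (0.0666), B (0.0603), C (0.134) or D (0.106), lipid replicate C (0.202) or D (0.172), itaconate replicate B (0.0512), C (0.0531) or D (0.0529), or lipid + itaconate replicate D (0.0587). Gys2 (glycogen synthase), Pygl (phosphorylase), Ugp2 (the maker of UDP-glucose), Gbe1 (the branching enzyme) and Ppp1r3c (another targeting subunit) were called in none of the 4 treatment comparisons. With itaconate present no glycogen gene was called for lipid, beside 47.0% of all genes. The log2 fold changes of the 6 ran from -0.28 to 0.07. Without lipid + itaconate replicate B, Ppp1r3c was called (-0.44, adjusted p = 0.0103).

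All 4 pentose phosphate genes had a negative log2 fold change with lipid alone, and 3 were called lower, beside 23.7% of all genes. With 4 genes, the count is not read as a result about the group. G6pdx, Pgd and Tkt fell, and Taldo1 had a log2 fold change of -0.08 ± 0.04 that was not called. Pgd (ENSMUSG00000028961.15, chr4:149149991-149166771, minus strand), 6-phosphogluconate dehydrogenase, gave the smallest adjusted p of the 36. It was at 502, 516, 529 and 530 CPM untreated, 420, 438, 380 and 437 CPM with lipid, 461, 488, 466 and 493 CPM with itaconate, and 456, 455, 412 and 432 CPM with both. Every library of the 3 treated groups lay below every untreated library. With lipid it fell by 0.31 ± 0.05 on the log2 scale (adjusted p = 5.15e-05), and with itaconate present by 0.12 ± 0.05 (adjusted p = 0.0391). The latter call was lost without itaconate replicate B (adjusted p = 0.0583), C (0.107) or D (0.0991), without lipid + itaconate replicate C (0.0862) or D (0.133), without the letter term (0.0925), without the filter (0.0928) and in a fit of only the 8 libraries compared (0.078). It was -0.13 without lipid + itaconate replicate B (adjusted p = 0.0448).

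G6pdx, which opens the oxidative branch, went from 58.8 CPM ± 10.6 to 46.2 ± 5.63 with lipid (-0.34 ± 0.08, adjusted p = 0.00282), and Tkt, transketolase of the non-oxidative branch, from 441 CPM ± 16 to 394 ± 4.85 (-0.16 ± 0.04, adjusted p = 0.00565). Neither gene's groups overlapped. With itaconate present the lipid difference was -0.02 ± 0.08 for G6pdx, -0.07 ± 0.04 for Tkt and 0.03 ± 0.04 for Taldo1, none of them called. Pgd was then the only 1 of the 4 called, beside 23.5% of all genes lower. Whether these differences depend on itaconate is tested by the interaction below.

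Itaconate changed few of these genes. Against untreated cells 2 of 36 were called, both lower (5.56%, beside 4.91% of all genes, 1.96% higher and 2.95% lower), with 5 at an unadjusted p under 0.05, beside 21.3% of all genes. Against lipid alone, lipid + itaconate gave 2 calls, both lower (5.56%, beside 2.58% of all genes, 1.32% higher and 1.26% lower), with 10 at an unadjusted p under 0.05, beside 17.3% of all genes. Only Hk2 passed 1.5-fold in either, beside 0.0600% of all genes higher and 0.642% lower in the first and 0.137% and 0.325% in the second. Hk2 was also the gene common to both lists. Relative to untreated cells its log2 fold change was -0.77 ± 0.15 (adjusted p = 0.00855), and relative to lipid alone -0.77 ± 0.14 (adjusted p = 0.0122). It was lower in 4 of 4 letters each time, and only the first pair of groups was free of overlap. Both calls rested on the letter term (adjusted p = 0.0931 and 0.124 without it), and the second was lost without lipid + itaconate replicate A (0.0587) or lipid replicate D (0.0552) and in a fit of only the 8 libraries compared (0.0707). The 2 comparisons share no library.

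Pklr was the other gene lower with lipid + itaconate than with lipid, at 75.8 CPM ± 4.89 against 114 ± 17.2, with no overlap (log2 fold change -0.57 ± 0.14, adjusted p = 0.0427). Against untreated cells itaconate gave -0.45 ± 0.14 (adjusted p = 0.0822), lower in 4 of 4 letters. The call with lipid was lost without untreated replicate A (adjusted p = 0.0563), B (0.0571) or D (0.0626), lipid replicate A (0.0629), C (0.102) or D (0.145), lipid + itaconate replicate A (0.166), B (0.108) or D (0.0894), and without the letter term (0.39). Taldo1, transaldolase of the non-oxidative branch, fell with itaconate from 132 CPM ± 11.9 to 116 ± 17.9 (-0.20 ± 0.04, adjusted p = 0.015), lower in 4 of 4 letters. Its call was lost without untreated replicate A (adjusted p = 0.0673) or C (0.0629) or itaconate replicate C (0.0861) or D (0.0695), and without the letter term (0.476). With lipid present Taldo1 differed by -0.09 ± 0.04 (adjusted p = 0.291).

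**Figure D5:**
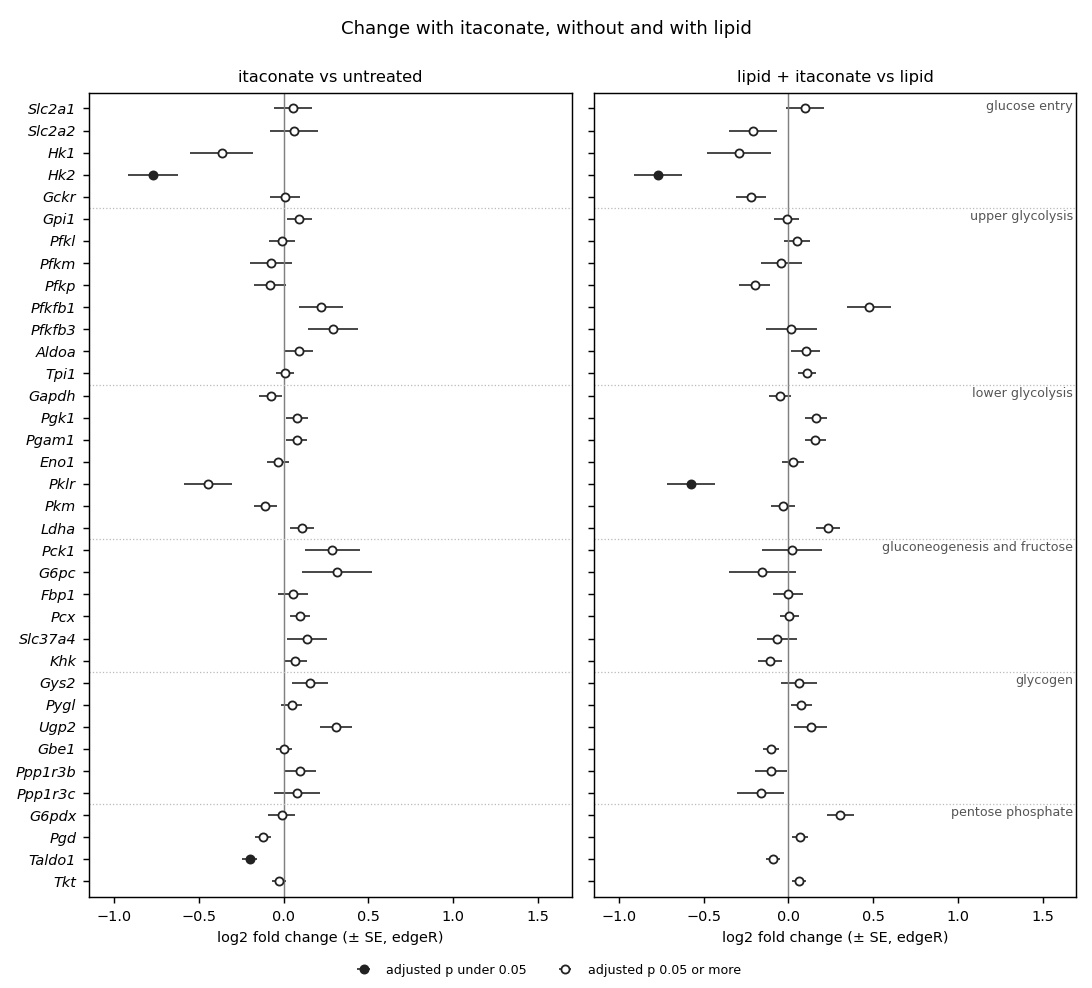
Log2 fold change (± SE) of each gene with itaconate, without lipid (left) and with it (right), from edgeR; filled points have an adjusted p under 0.05. Hk2 stands at -0.77 in both panels, Taldo1 is filled on the left and Pklr on the right.

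Without lipid + itaconate replicate C, the library lowest for most of these genes, the comparison with lipid alone called 7 genes in place of 2, and 889 genes of all tested in place of 301. Hk2 (-0.73, adjusted p = 0.0114) and Pklr (-0.71, adjusted p = 0.00632) were lower. Ldha (0.31, adjusted p = 0.00663), Pgk1 (0.23, adjusted p = 0.0207), Pgam1 (0.22, adjusted p = 0.0292), Aldoa (0.23, adjusted p = 0.0202) and G6pdx (0.32, adjusted p = 0.0324) were higher with itaconate. With all 16 libraries these 5 had positive changes that were not called: Ldha was at 0.23 ± 0.07 (adjusted p = 0.0903), G6pdx at 0.31 ± 0.08 (adjusted p = 0.0537), Pgk1 at 0.16 ± 0.06 (adjusted p = 0.189), Pgam1 at 0.16 ± 0.06 (adjusted p = 0.192) and Aldoa at 0.10 ± 0.09 (adjusted p = 0.562). Replicate C was set apart by its low levels of these same genes, and was lowest of its group for Ldha, Pgk1, Pgam1 and Aldoa. Leaving it out raises their lipid + itaconate means, so the direction of that shift was set by the choice of library. G6pdx did not overlap between the groups, at 37.96, 49.92, 47.07 and 49.77 CPM with lipid and 54.77, 51.84, 63.24 and 58.54 CPM with both. Without replicate B of the group the only call was Hk2 (-0.74, adjusted p = 0.0341). Among genes never called, Pfkfb1 came nearest, higher with lipid + itaconate than with lipid in 4 of 4 letters (0.48 ± 0.13, adjusted p = 0.0644), and Ugp2 was higher with itaconate alone in 4 of 4 letters (0.31 ± 0.10, adjusted p = 0.0751).

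Whether the lipid response differed with itaconate was tested directly. The interaction of lipid and itaconate called 0 of the 36 genes by edgeR, beside 0.00857% of all genes, with 2 at an unadjusted p under 0.05 (beside 8.60% of all genes), and DESeq2 also called 0 of them. The 2 were G6pdx (0.32 ± 0.11, adjusted p = 0.442) and Pgd (0.19 ± 0.06, adjusted p = 0.409). Their share of the 36 was below that of all genes, so they are not read as a result. The largest interaction in size was that of G6pc, -0.47 ± 0.29 (adjusted p = 0.685). Genes called with lipid only in the absence of itaconate, among them Gckr, Slc2a2, Khk and Tkt, are therefore not shown to respond differently in its presence. For Hk2 the interaction was 0.00 ± 0.20 (adjusted p = 0.998).

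The neighbouring pathway genes outside the list of 36 were counted as a set of 82 symbols, of which 66 were tested. With lipid 18 rose and 21 fell (59.1%, beside 47.5% of all genes), and in the presence of itaconate 16 rose and 23 fell (59.1%, beside 47.0%). Itaconate against untreated cells gave 1 rise and 1 fall (3.03%, beside 4.91%), and lipid + itaconate against lipid 3 rises and 2 falls (7.58%, beside 2.58%). Pdk4, the kinase that shuts pyruvate dehydrogenase and so keeps pyruvate out of the citric acid cycle, fell with lipid from 307.4 CPM ± 48.2 to 121.5 ± 17.9 (-1.34 ± 0.09, adjusted p = 1.58e-08). Tkfc, which acts after Khk in fructose breakdown, rose from 74.78 CPM ± 15.1 to 139 ± 15.5 (0.91 ± 0.06, adjusted p = 3.61e-08). Pck2, the mitochondrial counterpart of Pck1, rose (0.80 ± 0.11, adjusted p = 3.56e-05) where Pck1 fell.

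Also past 1.5-fold with lipid alone were Creb3l3, a hepatic transcription factor of fasting (1.06), Nhlrc1 (0.91) and Epm2a (0.66), which encode the malin and laforin pair of glycogen quality control, Aldoc (0.75), the pyruvate dehydrogenase subunit Pdhb (0.71) and Pdk3 (0.68), all higher. Ppp1r3g, a glycogen targeting subunit (-1.07, at 0.88 CPM with lipid and 1.86 CPM in untreated libraries), and Pgm2l1 (-0.64) were lower. In the presence of itaconate, changes past 1.5-fold included Creb3l3 (0.95), Aldoc (0.81), Nhlrc1 (0.67) and Pck2 (0.63), higher, and Ppp1r3g (-1.74), Pdk4 (-1.09), Pgm2l1 (-0.82), the muscle phosphorylase Pygm (-0.77) and Ppargc1a (-0.63), lower. Ppp1r3g (0.80 CPM with lipid + itaconate, 2.73 with itaconate) and Pygm (1.03 and 1.81 CPM) lay near the filter of mean CPM 1. For these neighbours, values without lipid + itaconate replicates B and C are not given. Ppargc1a, a coactivator of gluconeogenic genes, was the only neighbour past 1.5-fold with itaconate alone, where it rose from 3.23 CPM ± 0.34 to 5.19 ± 0.358 (0.69 ± 0.14, adjusted p = 0.0121).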

How the data were processed

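Poly(A) RNA libraries of 16 hepatocyte samples were sequenced by the authors and, per the labels, processed with bcl2fastq 2.20, cutadapt 1.18, STAR 2.7.0f, Picard 2.18.26 and RSEM 1.3.1 on mm10. The deposited values are RSEM expected counts per gene, not normalized, of which 5.41% were not whole. RSEM divides reads that fit several genes by estimate, which bears on the enzymes with fractional counts. Gene identifiers and symbols of all 55450 rows matched the GENCODE annotation given with the reference, from which positions and union exon lengths were taken, and promoter windows came from RefSeq GRCm38.p6. The genes described and the lists of neighbours and markers were chosen with earlier results of these data known.

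Expected counts were rounded, and genes whose CPM averaged 1 or more were tested. edgeR 4.0.16 (R 4.3.3) fitted quasi-likelihood models with TMM factors, treatment and replicate letter over all 16 libraries, and p-values were adjusted over 11675 genes. After the group means were subtracted, libraries that carry 1 letter correlated in all 24 pairs (0.144 to 0.469), and every library correlated best with its own letter, so the replicate letters were taken to pair the samples. Values in every library are given for genes called in at least 2 of 4 treatment comparisons or called with at least 1.5-fold in 1, and neighbours are named when called with at least 1.5-fold, apart from 1 that is not reported here. Alternatives were a fit without the replicate block, RLE factors, other filters, DESeq2 1.42.0, limma-trend (limma 3.58.1), only the 8 libraries compared, a 1.5-fold minimum and leaving out each library. On simulated counts of lipid against untreated cells with 200 changed genes among 11675, the edgeR fit recovered 87% of 1.5-fold and 96% of 2-fold changes. It also called 11 unchanged genes. The simulation held far fewer changed genes than the 5546 called in the data. No change was simulated for itaconate, so recovery in the itaconate comparisons was not tested. Among low genes, Hk2 held 160 to 589 and Pfkfb1 43 to 112 reads per library.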

Additional observations from a re-analysis of the deposited data

Results flagged for a closer look

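For Gys2, the liver glycogen synthase, untreated replicate A stood apart at 26.99 CPM, while the other 3 untreated libraries lay between 16.99 and 18.15 CPM, a gap of 0.885 of the group's range. Of the 144 gene and group combinations examined it was the only one to exceed the 95% critical value of Dixon's test, where chance would give about 7.2. Replicate A was also the highest Gys2 library of each other group, at 27.3 CPM with itaconate, 22.22 with lipid and 27.62 with lipid + itaconate. The high level was thus shared by the letter, which is a term of the model.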

How the results depend on the processing

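None of the 35 called gene results changed sign under any of the 23 alternative fits, and 17 stayed called under all of these fits. The 1.5-fold minimum is not among the 23 and is given apart below. The fit without the replicate block called 12, 8, 0 and 0 of the 36 genes for lipid against untreated, lipid + itaconate against itaconate, itaconate against untreated and lipid + itaconate against lipid, in place of 18, 13, 2 and 2, so 15 calls rested on the replicate letter. Over all genes it called 4149, 3990, 23 and 9. Leaving out 1 library gave 14 to 21, 8 to 15, 1 to 4 and 0 to 7 calls in the same order, with the lowest values of the second comparison without itaconate replicate C or D and of the last without lipid + itaconate replicate A or lipid replicate D. Itaconate against untreated gave 1 call without replicate A or C of the untreated or C or D of the itaconate group, and 4 without lipid + itaconate replicate C. With no filter the itaconate comparisons called 7 and 8 genes and the interaction 2, Pfkfb3 (-0.28, adjusted p = 0.0301) and G6pdx (0.31, adjusted p = 0.0273). With only the 8 libraries compared itaconate against untreated called 10 and lipid + itaconate against lipid 1, and DESeq2 called 4 in the latter. Requiring at least 1.5-fold left 2, 2, 1 and 1. The cause of these differences was not tested. Leaving out 1 library gave 0 calls for the interaction each time. Over all genes lipid against untreated called 4717 to 6003 with 1 library left out, in place of 5546. Lipid + itaconate against itaconate called 4530 to 5559, in place of 5483. Over all genes itaconate against untreated called 573 genes by the full model and 149 to 1047 with 1 library left out, 1091 without the filter and 1859 from its 8 libraries; lipid + itaconate against lipid called 301, 59 to 889, 725 and 14, and DESeq2 called 509. The interaction called 1 gene of all tested, 231 without the filter and 36 by DESeq2. Of 145 results not called, 30 were called under at least 1 alternative.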
